A study of Arabidopsis thaliana with 6 samples.

Results

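Pectin methylesterases were followed in roots of Arabidopsis thaliana, ecotype Col 0, that had or had not been given gold. The family was taken as 60 loci fixed by their locus codes. A probe set, the group of short probes that reports 1 transcript on the Affymetrix ATH1 array, was named for 1 gene alone at 40 of these loci, and those 40 genes are described here as the measured members, out of 22746 probe sets tested. A further 4 loci shared 2 probe sets (PPME1 with AT5G07410, and VGDH1 with VGD1), and 16 loci had no probe set in the probe-to-gene table. Those 16 include PME2, PME3, PME17 (AT2G45220), PME31, PME44 and the root hair gene RHS12, which were not analysed here. The probe-to-gene table names 1 gene for 13513 probe sets, so absence from it does not show absence from the array. Membership could be checked against a name in the gene table at 5 of the 40 measured loci, namely ATPMEPCRB, PMEPCRF, ATPMEPCRD, PME61 and PME39 (AT4G02300). At the other 35 the table gives no descriptive name, and the class rests on the locus list.

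Plants were grown for 14 days in sealed jars, and each jar was 1 sample. In 3 jars the liquid medium was replaced by 0.125 mM KAuCl4, a soluble gold(III) salt, at pH 5.7, and 3 jars received no gold. Exposure lasted 24 h according to the sample labels and 6 h according to the treatment protocol. The labels call the no gold jars untreated and the design text calls them water-treated; if they kept their medium, its removal and the gold cannot be told apart. The values are log2 signals, with base 2 assumed, that had been centred so that the median of the 6 arrays is 0 for every probe set. They show differences between arrays and hold no expression level, so a gene that is silent in roots cannot be separated from one that is steady.

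Pectin methylesterases act in the cell wall on homogalacturonan, the main pectin chain, and remove methyl groups from its galacturonic acid residues. The freed acid groups can bind calcium and tie chains together, which stiffens the wall, or the chain can become a substrate for polygalacturonases and pectate lyases, which cut it. Many family members are made with an inhibitor-like leader that is cut off before the enzyme works, a step in which subtilisin-like proteases take part, and separate inhibitor proteins bind the mature enzyme. In roots the family is known for its part in cell elongation and root hair growth, and some members are known mainly from pollen.

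With gold, 4 of the 40 measured members rose and 6 fell, and 30 did not pass the test (limma, adjusted p below 0.05 over all probe sets). Across all probe sets tested, 20.2% passed, 9.32% higher and 10.9% lower. The members' shares of 25.0% in all, 10% higher and 15% lower lay near these background shares, so the count itself is no result about the family. The median change of the measured members was 0.00 on the log2 scale, beside -0.045 for all probe sets, and their median absolute change was 0.32 beside 0.28. AT5G04960 had the widest change, a 9.15-fold fall, and ATPMEPCRB the widest rise, at 4.73-fold.

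The array of no gold replicate 1 stood apart from the other 5 in its control transcripts. Its difference between the centred values of the 5' and 3' probe sets was -4.89 for actin, against -1.02 to 0.38 on the other arrays. For GAPDH it was -2.55, against -0.21 to 0.03. Because of the centring, these values compare arrays with each other and do not give the 5' to 3' ratio within an array. Without that array all 10 called members kept their call and direction, and AT3G05620 and AT5G51500 passed in addition, both higher. Centring fixes 1 feature of the values below: where the 2 groups do not overlap, the gold value and the no gold value nearest to each other are mirror images around 0. An exact two-sided permutation test of 1 gene cannot go below p = 0.1 with 3 jars against 3. Limma pools the spread across probe sets. In an ordinary test without that pooling, AT3G10720 and PMEPCRF alone among the 10 kept their calls (ordinary test, adjusted p = 0.0145 and 0.0146). The other calls depend on the pooling.

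ATPMEPCRB (AT4G02330), also named PME41 and known for a role in tolerance of chilling, rose most among the members. Its centred log2 signal was -1.64, -0.62 and -2.32 on the no gold arrays and 0.64, 0.87 and 0.62 on the gold arrays. All 3 gold values were higher than every no gold value, and the gold jars lay closer together (SD 0.14) than the no gold jars (SD 0.86). The log2 change was 2.24 ± 0.386 (SE, 3 jars in each group; limma adjusted p = 0.00552), with a 95% interval from 1.35 to 3.14. It ranked 598 of 22746 from the highest change.

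AT2G47550 had no gold values of -0.25, -0.46 and -0.61 and gold values of 0.25, 1.38 and 0.68. Its gold jars were spread widely, with replicate 2 highest, and did not overlap the no gold jars. The change was 1.21 ± 0.283 (limma adjusted p = 0.0208), a 2.31-fold rise. This call was lost when no gold replicate 2 or 3 or gold replicate 3 was left out (limma adjusted p from 0.0675 to 0.0719).

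AT3G10720 gave the tightest rise. Its values were -0.40, -0.48 and -0.62 without gold and 0.49, 0.40 and 0.40 with gold. The SD was 0.06 among the gold jars and 0.11 among the no gold jars, well under the change of 0.93 ± 0.146 (limma adjusted p = 0.00368). RHS12 (AT3G10710), a root hair gene of the family whose locus code precedes it, had no probe set in the probe-to-gene table.

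AT5G20860 showed the smallest change among those called. It had -0.16, -0.53 and -0.60 without gold and 0.22, 0.16 and 0.36 with gold, with no overlap. The change of 0.68 ± 0.173 corresponds to a 1.60-fold rise (limma adjusted p = 0.0289). The call held when no gold replicate 1 was left out (limma adjusted p = 0.00913) and was lost when any 1 of the other 5 arrays was left out (limma adjusted p from 0.0545 to 0.130). With the replicate number as a block it was lost as well (limma adjusted p = 0.069). Because of these 2 genes, the count of members that rose was 2 in place of 4 without no gold replicate 2, no gold replicate 3 or gold replicate 3.

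**Figure D1:**
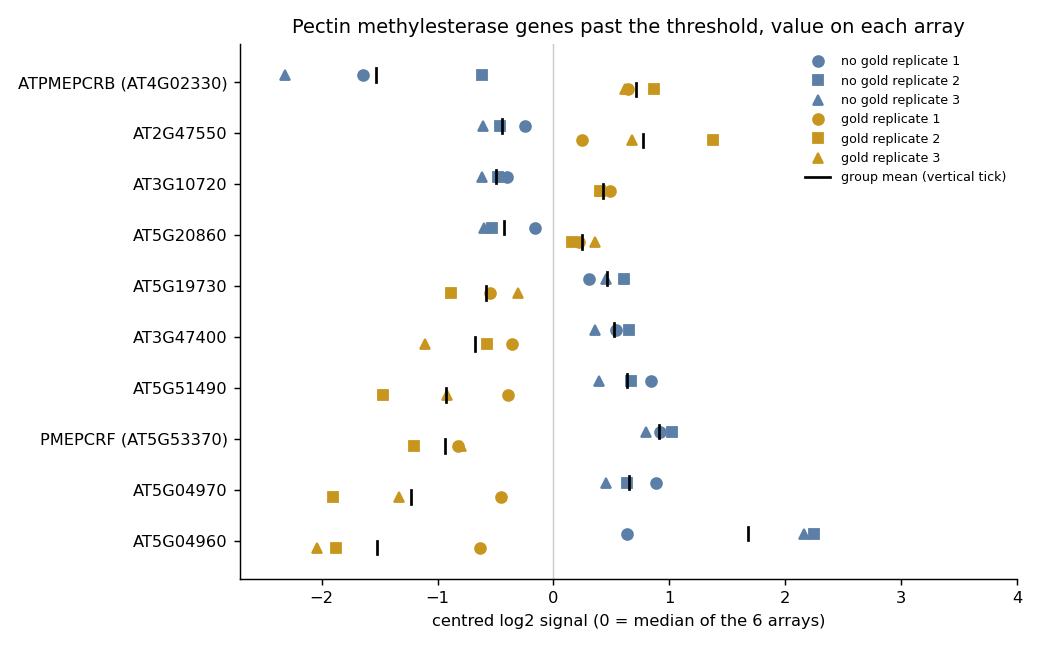
Centred log2 signal (x axis, 0 is the median of the 6 arrays) of the 10 members past the threshold, with 1 point per array, marker shape for the replicate number, colour for the group and a vertical tick at each group mean. In all 10 genes the gold and no gold points do not overlap, beside 37.2% of all probe sets. The 10 were selected by the test on these same values, so the separation adds no support. AT5G04960 has the widest distance between groups, and AT3G10720 and PMEPCRF have the tightest groups relative to their change.

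The 6 members that fell had changes from -1.04 to -3.19, and the 4 that rose from 0.68 to 2.24. AT5G04960 fell most. Its centred log2 signal was 0.63, 2.25 and 2.16 on the no gold arrays and -0.63, -1.88 and -2.04 on the gold arrays. Both replicate 1 arrays lay nearest to 0 in their group, and the groups did not overlap. The fall was -3.19 ± 0.515 (SE, 3 jars in each group; limma adjusted p = 0.00414), with a 95% interval from -4.39 to -2.00, and it ranked 94 of 22746 from the lowest change. Without no gold replicate 1, the array that stood apart in its control transcripts, it was -3.72 (limma adjusted p = 0.0018).

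AT5G04970, the next coding gene along chromosome 5, fell too. It stood at 0.88, 0.63 and 0.45 without gold and at -0.45, -1.90 and -1.33 with gold. Gold replicate 1 was again the gold array nearest to the no gold jars. The fall was -1.88 ± 0.343 (limma adjusted p = 0.00711), a 3.68-fold difference.

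PMEPCRF (AT5G53370) had the lowest adjusted p among the members. Its values were 0.92, 1.02 and 0.80 without gold and -0.82, -1.20 and -0.80 with gold. The jars of each group lay close together, with SDs of 0.11 and 0.23, and far from the other group. The fall was -1.86 ± 0.172 (limma adjusted p = 0.000312), or 3.62-fold. It was the only member whose call held under all 13 other settings of the fit, with changes from -2.17 to -1.73.

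AT5G51490 had 0.84, 0.67 and 0.39 without gold and -0.39, -1.47 and -0.92 with gold. It fell by 1.56 on the log2 scale (SE 0.28; limma adjusted p = 0.00667), with gold replicate 2 lowest. AT3G47400 had 0.54, 0.65 and 0.36 without gold and -0.36, -0.57 and -1.11 with gold, a change of -1.20 ± 0.220 (limma adjusted p = 0.0073), with gold replicate 3 lowest. AT5G19730 had 0.31, 0.61 and 0.45 against -0.55, -0.88 and -0.31, a change of -1.04 ± 0.191 (limma adjusted p = 0.00737). The groups of these 3 genes did not overlap. All 6 falls kept their call when each of the 6 arrays was left out in turn. In an ordinary test without pooling of the spread, PMEPCRF alone among the 6 kept its call, and the adjusted values of the other 5 ran from 0.0542 (AT5G19730) to 0.0865 (AT5G04970). With limma treat, which asks for more than a 1.5-fold change, AT5G51490 (adjusted p = 0.056), AT3G47400 (0.126) and AT5G19730 (0.203) lost their calls. Of the 4 rises, AT3G10720 alone kept its call in the ordinary test and ATPMEPCRB alone with treat.

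**Figure D2:**
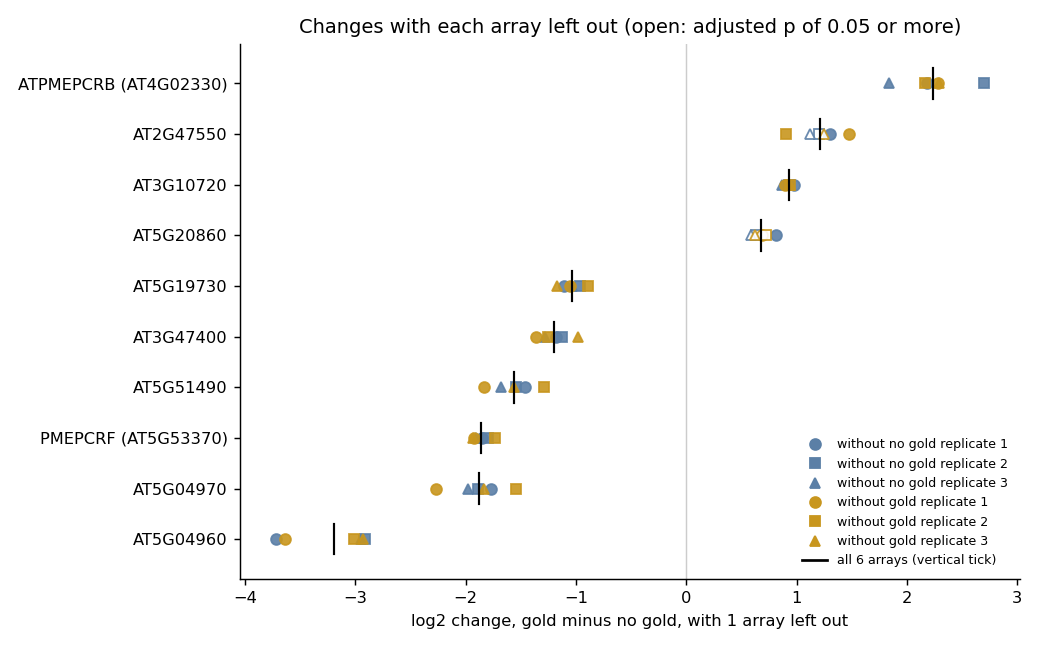
Log2 change, gold minus no gold (x axis), of the 10 called members when 1 array is left out, with marker and colour for the array left out, a vertical tick for the value from all 6 arrays and open markers where the adjusted p was 0.05 or more. Open markers occur in AT2G47550 and AT5G20860, and the 6 genes that fell have filled markers throughout.

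In whole roots, fewer cells of a type and less RNA per cell cannot be told apart. Of 10 listed root hair markers 3 were measured, and all 3 fell (100%, beside 10.9% of all probe sets). The markers were chosen with earlier results of these data known, so this share is no independent support. Log2 changes were -2.34 for EXPA7, -2.36 for EXPA18 and -2.53 for the peroxidase AT1G30870. Their mean centred signal was between 0.57 and 1.44 on the no gold arrays and between -1.75 and -0.57 on the gold arrays. Of 6 shoot and photosynthesis markers 2 were measured, with mean signals of 0.50 to 1.68 without gold and -0.75 to -0.28 with gold; RCA fell by 1.49 and PRK, at -1.48, did not pass (limma adjusted p = 0.0737). The single measured markers of endodermis, root cap and phloem did not pass. No listed marker of xylem or pollen had a probe set named for it alone in the probe-to-gene table. Centred values do not show whether a marker was at background. The part of cell types in the members' changes was not tested.

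The gold arrays differed in how far they shifted. Their SD over all probe sets tested was 0.371 for replicate 1, 0.717 for replicate 2 and 0.537 for replicate 3. Whether the shifts reflect the jars or the scale of the arrays was not tested. Among the 10 called members the gold array with the smallest shift was replicate 1 in 5, replicate 2 in 2 and replicate 3 in 3. Over the 4601 called probe sets it was replicate 1 in 71.3%. The largest shift was in gold replicate 2 for 6 of the 10 members and for 62.3% of the called probe sets. The difference in these shares was not tested.

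The 30 members that did not pass had changes between -0.73 and 0.54, and 20 of them lay within 0.3 of no change. Their 95% intervals reached from -1.41 at the lowest to 0.996 at the highest. In 3 of the 30, AT1G02810, AT1G05310 and ATPMEPCRD, the interval included a fall of 1 on the log2 scale, that is 2-fold; for the others it did not reach that size in either direction. The groups did not overlap in 6 of the 30, and in 16 of all 40 measured members (40%, beside 37.2% of all probe sets).

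Among these 30, AT1G02810 lay lowest, with 0.99, 0.32 and 0.17 without gold and -0.17, -0.29 and -0.26 with gold. Its groups did not overlap, and no gold replicate 1 lay highest. The change was -0.73 ± 0.229 (limma adjusted p = 0.0604), and -0.48 without that array (limma adjusted p = 0.0502). It passed with quantile normalization, at -0.75 (limma adjusted p = 0.0478). AT1G05310 followed at -0.69 (limma adjusted p = 0.178); its gold values of -0.66, -1.09 and 0.13 overlapped those of the no gold jars, which were 0.44, -0.08 and 0.08. Without gold replicate 3 it passed, at -1.03 (limma adjusted p = 0.0465), and without gold replicate 2 it was at -0.41 (limma adjusted p = 0.462).

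ATPMEPCRD was at -0.63, with 0.26, 0.06 and 0.64 without gold and -0.61, -0.06 and -0.25 with gold (limma adjusted p = 0.0851). AT3G49220 was at -0.52, with 0.21, 0.21 and 0.08 against -0.08, -0.68 and -0.30 (limma adjusted p = 0.1). Both had groups that did not overlap. On the positive side, AT5G51500 was at 0.54, with 0.00, -0.41 and -0.42 against 0.38, 0.00 and 0.42 (limma adjusted p = 0.0958). AT3G05620 was at 0.48, with -0.01, -0.34 and -0.61 against 0.01, 0.29 and 0.17 (limma adjusted p = 0.137). These 2 genes passed without no gold replicate 1, at 0.68 (limma adjusted p = 0.0365) and 0.63 (limma adjusted p = 0.0371); that array held the highest no gold value of each. AT5G51500 also passed with quantile normalization, at 0.72 (limma adjusted p = 0.046). With array quality weights AT1G02810, ATPMEPCRD, AT3G49220, AT5G51500 and AT3G05620 all passed (limma adjusted p from 0.000107 to 0.00821), and AT1G05310 did not. That setting called 5442 probe sets higher and 6366 lower out of 22746, so passing it sets these members little apart. It gave gold replicate 3 a weight of 15.8, against 0.447 and 0.347 for gold replicates 1 and 2.

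The 2 probe sets shared by pollen genes of the family did not pass. The one shared by VGD1, which is needed for pollen tube growth, and its homolog VGDH1 was at 0.21 with a 95% interval from -0.11 to 0.54 (limma adjusted p = 0.368). The one shared by PPME1 and AT5G07410 was at -0.14, with an interval from -0.56 to 0.27 (limma adjusted p = 0.681). PME61 (AT3G59010), also named PME35, was at 0.20 (limma adjusted p = 0.536) and PME39 (AT4G02300) at 0.38 (limma adjusted p = 0.363).

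**Figure D3:**
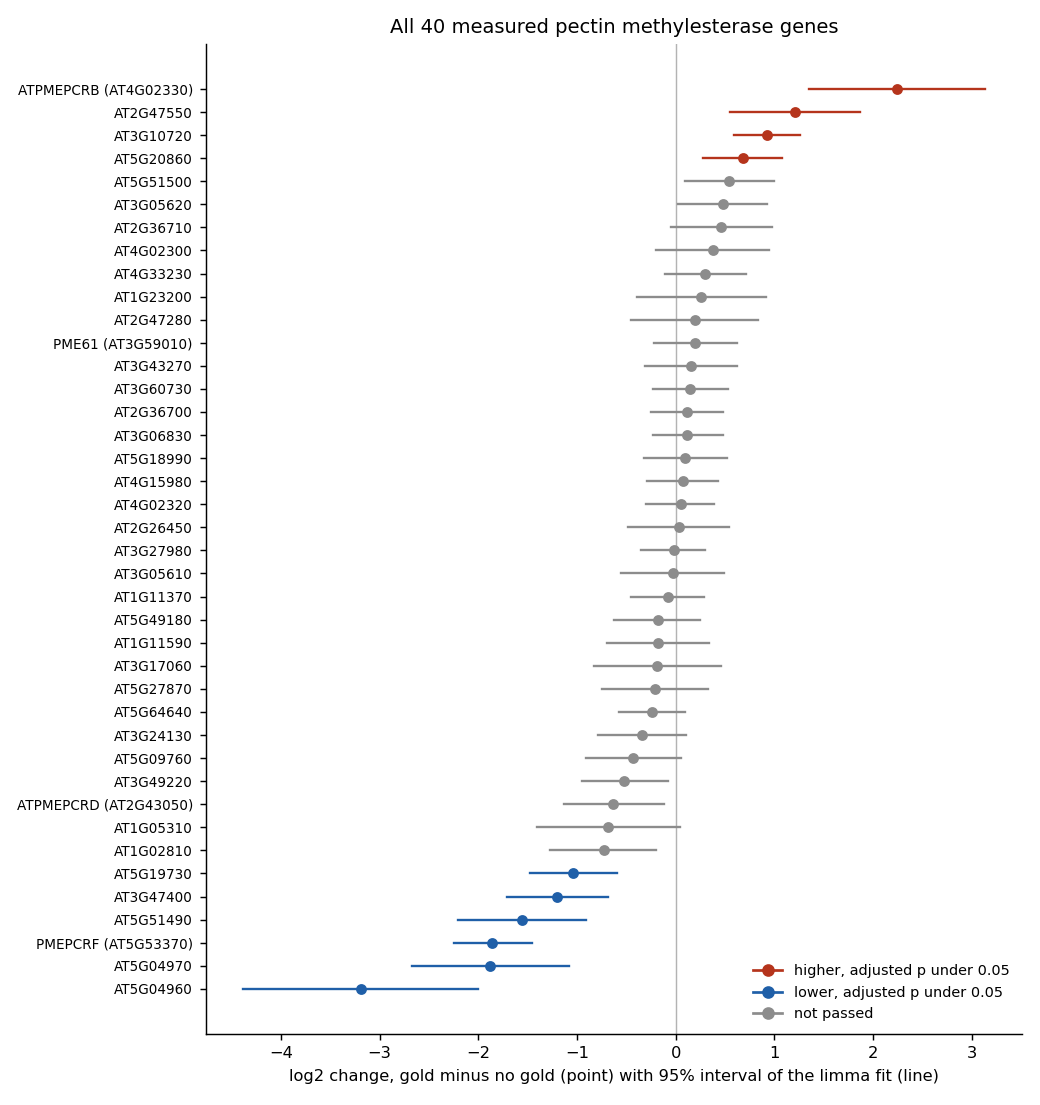
Log2 change, gold minus no gold (x axis), of each of the 40 measured members, ordered by change, as a point with its 95% interval from the limma fit and coloured by call. The 4 rises run from 0.68 to 2.24 and the 6 falls from -1.04 to -3.19, with 30 genes between them that did not pass.

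Several members neighbour each other on a chromosome, and 6 pairs of measured members had at most 1 protein-coding gene between them in the TAIR10.1 gene table. The pairs did not share 1 behaviour. AT5G04960 and AT5G04970 both fell, and the difference of their changes, -1.32, lay within the overlap of the jars (exact permutation test, two-sided, p = 0.3). AT5G51490 fell while its neighbour AT5G51500 was at 0.54. The per-array difference between these 2 genes was 0.81 to 1.08 without gold and -1.47 to -0.77 with gold, with no overlap (difference of changes -2.10; exact permutation test, two-sided, p = 0.1, the smallest this design allows). Much of this difference repeats the fall of AT5G51490, at -1.56 and called on the same arrays, while AT5G51500 did not pass.

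ATPMEPCRB rose while its measured neighbour did not pass. AT4G02320, next to it on chromosome 4, was at 0.05 ± 0.149, and the per-array difference of AT4G02320 from ATPMEPCRB was 0.59 to 2.17 without gold and -0.79 to -0.61 with gold (difference of changes -2.19; exact permutation test, two-sided, p = 0.1). The values of AT4G02320 lay between -0.15 and 0.09, so this difference largely repeats the change of ATPMEPCRB and adds no support of its own. AT4G02300, with 1 coding gene between it and AT4G02320, was at 0.38. AT3G05610 and AT3G05620, at -0.03 and 0.48, had differences that did not overlap between groups either (exact permutation test, p = 0.1). The remaining pair, AT2G36700 at 0.12 and AT2G36710 at 0.46, overlapped (exact permutation test, p = 0.3). No pair passed after adjustment over the 6 (adjusted values of 0.2 and 0.3 by exact permutation), which the design cannot reach. Probe sets of near-identical neighbours can pick up each other's transcripts, and this was not examined here.

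**Figure D4:**
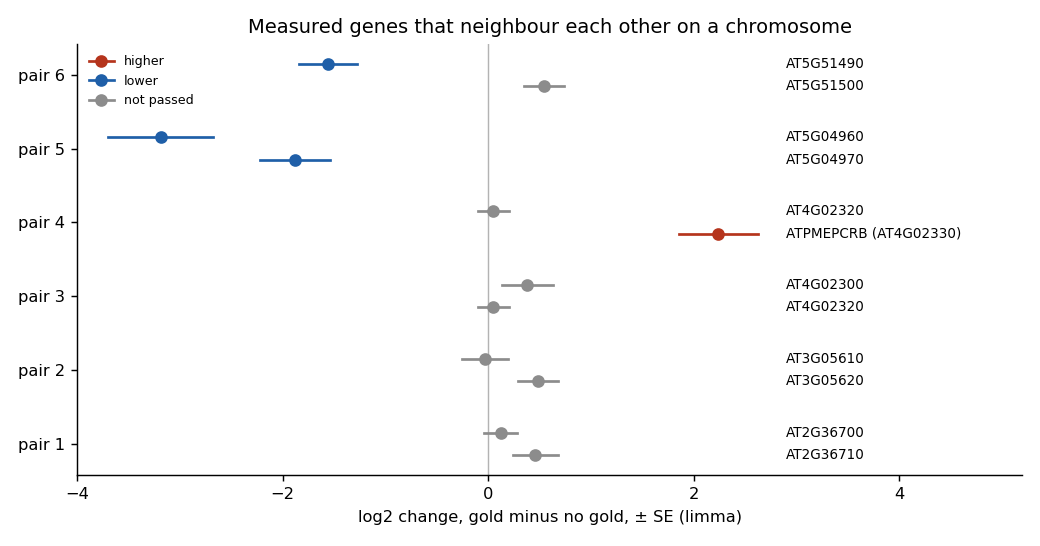
Log2 change, gold minus no gold (x axis), with its SE from the limma fit, for the 6 pairs of measured members that neighbour each other, coloured by call and with the gene names at the right. AT5G04960 and AT5G04970 lie on the same side of 0, whereas AT5G51490 at -1.56 and AT5G51500 at 0.54 lie on opposite sides.

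The proteins that act on the enzymes themselves came next. Their lists and the pectin lists below were chosen with earlier results of these data known, so the shares are no independent support. Of 4 measured subtilases linked to pectin methylesterases, 2 rose (50%, beside 9.32% of all probe sets) and 2 did not pass. SBT3.5, a protease known to process PME17 in roots, had no gold values of -1.05, -1.58 and -1.88 and gold values of 1.05, 2.15 and 1.88. It rose by 3.19 ± 0.326 (limma adjusted p = 0.000484). SBT3.3, a close relative by name, rose by 2.53 ± 0.275 (limma adjusted p = 0.000643). S1P, also known as a protease of pectin methylesterase leaders, was at -0.19, and ARA12 was at 0.00. By locus code SBT3.5 and SBT3.3 lie near each other, and cross-detection by their probes was not examined.

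Among the proteins of the inhibitor family, 1 of 12 measured genes rose (8.33%, near the 9.32% of all probe sets), 3 fell (25.0%, beside 10.9%) and 8 did not pass, with a median change of -0.29. AT4G25250 fell by 3.65 on the log2 scale (SE 0.415; limma adjusted p = 0.000781). AT5G62360 fell by 2.17 (SE 0.137; limma adjusted p = 6.19e-05), with 1.07, 1.11 and 1.06 without gold and -1.12, -1.07 and -1.06 with gold, so that jars within a group hardly differed. AT3G47380 rose by 3.17 ± 0.322 (limma adjusted p = 0.000479). That inhibitor gene and the esterase gene AT3G47400, which fell, are separated by 1 coding gene on chromosome 3. Only this pair was looked at, and other neighbouring inhibitor and esterase genes were not searched for.

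Genes for enzymes that cut or trim the same chain were counted next. Of 23 measured pectate lyases, which cleave de-esterified pectin, 10 fell (43.5%, beside 10.9% of all probe sets), 13 did not pass and none rose by limma; at an unadjusted p below 0.05 there were 11 lower and 1 higher. Log2 changes were -1.96 for AT3G27400, -1.85 for AT5G48900 and -1.72 for AT1G11920 (limma adjusted p from 0.000483 to 0.00211). The number that fell was 6 without gold replicate 3 and 10 without no gold replicate 1. Over all probe sets it went from 2480 to 1258 and to 2717. AT5G04310 had 2 probe sets that went up, at 1.26 (limma adjusted p = 0.0671) for the one counted and 1.48 (limma adjusted p = 0.0203) for the other.

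Of 38 polygalacturonases 1 rose (2.63%, beside 9.32% of all probe sets) and 6 fell (15.8%, beside 10.9%), with a median change of -0.09. Log2 changes among the falls were -3.39 for AT1G65570 (limma adjusted p = 3.09e-05), -2.04 for AT2G43880 and -1.03 for AT1G80170. Of 6 pectin acetylesterases, which remove acetyl groups from pectin, 1 rose (16.7%) and 3 fell (50%). AT3G09405 rose by 4.80 ± 0.286 (limma adjusted p = 5.05e-05), from -1.92, -2.55 and -2.68 to 1.92, 2.77 and 2.57, the widest change in these lists. AT1G57590 fell, at -1.78, and so did AT5G26670, at -0.97. The 2 measured genes of homogalacturonan synthesis and methylation (GAUT15 and AT3G49720) and the receptor kinase gene FER did not pass. In all 86 measured genes of these lists, 5 rose (5.81%, beside 9.32% of all probe sets) and 22 fell (25.6%, beside 10.9%). Without gold replicate 3 the number that fell was 14, and without no gold replicate 1 there were 7 higher and 24 lower. Over all probe sets the number lower went from 2480 to 1258 and to 2717 in these 2 settings.

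**Figure D5:**
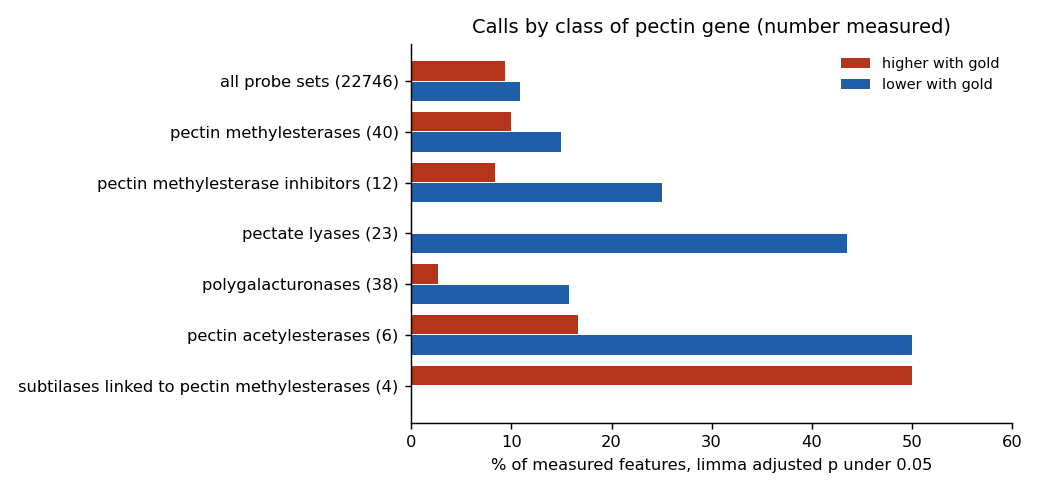
Percentage of measured features called higher or lower with gold (x axis, limma adjusted p below 0.05) for all probe sets, the pectin methylesterases and the classes of other pectin genes with at least 4 measured members, with the number measured in brackets. The pectin methylesterases, at 10% higher and 15% lower, lie near all probe sets at 9.32% and 10.9%, and the pectate lyases show no bar for higher.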

How the data were processed

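Roots from 3 jars with gold and 3 without were hybridised to 1 ATH1 array each. The deposited table holds log2 values that the authors had centred per probe set; base 2 was assumed from the range of the values. The sources used here do not give the summarisation, the scaling or the genome build. Precision is limited by having 3 arrays per group.

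Without the 64 control probe sets, 22746 were fitted with limma 3.58.1 in R 4.3.3 (lmFit, eBayes; gold minus no gold, two-sided) and adjusted by Benjamini-Hochberg over all of them. Values were used as deposited. Genes were matched by gene ID through GEO's platform annotation and the TAIR10.1 gene table, from which all 60 loci were found; no coordinates are printed because no build is named. Where a gene had several probe sets, the one without a shared-sequence suffix, then the lowest ID, was used; no member had more than 1. All called members were named, with the 6 not passing of largest absolute change and up to 3 called genes per pectin list. Members, lists and markers were chosen with earlier results of these data known. Errors are limma standard errors.

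The planned descriptions of promoters and proteins, and the filter on the 40% dimmest probe sets, were not run, as no sequences or levels were used here. The fit was tested on simulated data of the same size (gold against no gold, 22746 probe sets). It called 28 of 100 log2 changes of 1 and 82 of 100 log2 changes of 2 with the correct sign. It also called 9 unchanged probe sets. The simulated noise was independent, with the same spread in both groups, and no other probe sets were changed. In the data 20.2% of probe sets passed and array quality weights ran from 0.155 to 15.8. The simulated rates therefore do not carry over to the real comparison. Tables were made in Python 3.11.15 with pandas 2.3.3 and scipy 1.17.1, and figures with matplotlib 3.10.9.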

Additional observations from a re-analysis of the deposited data

How the results depend on the processing

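PMEPCRF kept its call under all 13 other settings, and the 10 called members kept their direction in each. The ordinary test, run on each probe set without pooling, left 1 member higher (AT3G10720) and 1 lower (PMEPCRF), with 922 and 1015 probe sets; limma treat at 1.5-fold left 1 and 3, with 968 and 757 probe sets, and it asks for a larger change by construction. Array quality weights, which gave no gold replicate 1 a weight of 0.155 and gold replicate 3 one of 15.8, called 12 members higher and 10 lower, with 5442 and 6366 probe sets, and turned the uncalled AT1G05310 to 0.08. A minimum of 2-fold left 2 members higher and 1456 probe sets lower. With each array left out in turn, 2 to 6 members were higher and 6 to 7 lower, with 1262 to 2432 and 1258 to 2717 probe sets; the lowest probe set counts were without gold replicate 3, and lower probe sets also fell to 1565 without no gold replicate 2 and 1625 without gold replicate 2. The cause was not tested. A replicate block gave 3 members higher and 6 lower among 3949 called probe sets; deviations of same-numbered arrays from the group means correlated at -0.11, -0.25 and 0.28, so the numbers were not taken to pair the jars. For the other pectin genes, settings added after seeing the data gave 9 higher with quantile normalization, 16 higher and 34 lower with array quality weights, and 9 lower with treat and 10 with the ordinary test (pectate lyases 4 and 5); with arrays left out, 4 to 7 were higher and 14 to 24 lower, and 6 to 10 pectate lyases lower. The median change of all probe sets moved from -0.045 to -0.007 with array median centring and 0.004 with quantile normalization; these settings and robust empirical Bayes kept both member counts within 1.5 times. Averaging probe sets changes nothing, since each member had 1.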

Other observations

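The polygalacturonase gene AT5G14650, singled out after its values were seen, did not pass (change -3.08 ± 0.980; limma adjusted p = 0.0643) although 2 of the no gold jars stood far above the rest. Its centred log2 signal was 0.15, 4.55 and 3.70 without gold and -0.24, -0.15 and -0.44 with gold. No gold replicate 1, the array that stood apart in its control transcripts, lay near the gold jars. Without it the change was -4.41 (limma adjusted p = 0.000215). The gene and the array left out were both picked from these values, so that p is no support for the change. Whether array quality played a part was not tested.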
